A study of Mus musculus with 12 samples.

Results

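The activated fibroblast genes Postn, Cthrc1, Lrrc15, Ctgf and Tgfb3 were followed across left ventricles of mice that lacked miR-150 in cardiomyocytes and of their floxed controls, with and without myocardial infarction (MI). Activated fibroblasts, or myofibroblasts, are the cells that replace dead muscle with scar after an infarct. They secrete collagens and matricellular proteins, which sit in the matrix and signal to cells, and transforming growth factor beta (TGF-β) is the best known signal that turns resting fibroblasts into this state. Within the group, Tgfb3 encodes a TGF-β ligand, Ctgf a matricellular protein of the CCN family that TGF-β and the YAP and TEAD transcription factors induce, Postn (periostin) and Cthrc1 encode proteins that activated fibroblasts release into the scar, and Lrrc15 encodes a membrane protein of TGF-β-stimulated fibroblasts.

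RNA of left ventricles from C57BL/6J mice was hybridized to 12 1-colour Agilent arrays in 4 groups of 3, and each group held 1 male and 2 females. All mice carried floxed alleles of miR-150 (miR-150 fl/fl), and the miR-150 cKO mice also carried alpha-MHC-Cre, a transgene that expresses Cre recombinase in cardiomyocytes, so that fibroblasts were not the targeted cells. The controls carried no Cre, and the effects of Cre and of the deletion therefore cannot be told apart. Mice had MI, by permanent ligation of a coronary artery, or sham surgery, and hearts were taken 4 weeks later. Sham miR-150 fl/fl mice were 13 to 14 weeks old, sham miR-150 cKO mice 14 to 15 weeks, MI miR-150 fl/fl mice 14 weeks and MI miR-150 cKO mice 15 weeks. The labels give each array its own sex and age and mention no pooling. In RNA of a whole ventricle, a larger number of activated fibroblasts and more RNA per fibroblast cannot be told apart.

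The array files name no genes. A probe was named by matching its fold and p value, computed from the deposited log2 values, to the entries of a supplementary list, which was used as a name key only. The key named 863 gene symbols, and the 5 genes described here are 5 of these, with 1 probe each. They were chosen by measured values: Postn and Cthrc1 are on the list for sham miR-150 cKO against sham miR-150 fl/fl, Postn, Cthrc1, Lrrc15 and Tgfb3 on that for MI miR-150 fl/fl against sham miR-150 fl/fl, and Ctgf on that for MI miR-150 cKO against MI miR-150 fl/fl. In those 7 pairs of gene and comparison the difference is a description with no test. A further 12 pairs were tested, and most of these share a group of arrays with the choice of the gene, which can shift the difference. The remaining 1 pair, Lrrc15 between the sham groups, has no measurable fold.

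Levels are log2 spot intensity minus the 75th percentile of the same array, so that 0 is the brightness of the probe at that percentile, and differences are between group means on the log2 scale. The limma fit took in 54232 of 60819 probes, those well above background on 3 or more of the 12 arrays. A probe is called past the limits when the fold is at least 1.5 and the unadjusted p is under 0.05, and adjusted p-values are by the Benjamini-Hochberg method over all 54232 probes. The closest to the fold limit were Tgfb3 in MI against sham of miR-150 fl/fl mice, just inside with a fold of 1.54, and Tgfb3 between the sham groups, just outside with 1.40. With 3 arrays against 3, an exact 2-sided permutation test cannot give a p below 0.1, and every pair of groups that did not overlap gave that value.

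The share of probes well above background was 74.1% and 76.1% on sham miR-150 cKO arrays 2 and 3, and 81.5% to 90.3% on the other 10. Scan times and array positions place the arrays on 2 slides. All 3 arrays of MI miR-150 cKO hearts lay on slide 1, with replicate 3 of the MI miR-150 fl/fl group, and the other 8 lay on slide 2. The sham groups thus shared a slide, whereas MI miR-150 cKO and sham miR-150 cKO shared none. The level of miR-150 itself was not analysed here.

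Promoters are shown for each of the genes that had a reference window. RefSeq windows on GRCm38.p6 matched 2 of the 5 genes, with 2 start sites for Postn and 1 for Lrrc15. Each sequence is the 250 bases before the start site, 5′ to 3′ on the gene's strand, and capitals mark letters that match a searched motif on either strand (TATAAA of the TATA box, CAGAC bound by SMAD proteins, GGAATG bound by TEAD proteins and TGACTCA bound by AP-1).
Postn, start site 1, chr3:54359017-54359266, plus strand: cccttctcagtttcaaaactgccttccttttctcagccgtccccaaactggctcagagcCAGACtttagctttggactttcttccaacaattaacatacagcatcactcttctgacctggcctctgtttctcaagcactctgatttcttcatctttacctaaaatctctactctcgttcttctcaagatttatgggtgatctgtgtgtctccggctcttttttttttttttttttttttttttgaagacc
Postn, start site 2, chr3:54360857-54361106, plus strand: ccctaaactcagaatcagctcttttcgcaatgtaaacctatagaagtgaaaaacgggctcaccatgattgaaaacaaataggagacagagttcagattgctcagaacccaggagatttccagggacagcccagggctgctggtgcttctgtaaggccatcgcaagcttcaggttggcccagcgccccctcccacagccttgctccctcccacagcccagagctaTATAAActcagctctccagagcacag
Lrrc15, chr16:30283255-30283504, minus strand: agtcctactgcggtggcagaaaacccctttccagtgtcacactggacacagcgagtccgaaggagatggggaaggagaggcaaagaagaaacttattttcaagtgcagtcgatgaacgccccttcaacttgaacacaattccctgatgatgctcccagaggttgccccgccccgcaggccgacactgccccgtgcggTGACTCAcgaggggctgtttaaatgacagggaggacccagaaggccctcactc
The TATAAA match of Postn began 26 bases before start site 2, and 12.4% of the 32851 promoter windows of this length held these letters. CAGAC was present before Postn start site 1, and in 42.2% of windows. TGACTCA began 53 bases before the Lrrc15 start site, and 4.46% of windows held it. GGAATG was in 12.6% of windows and in none of these 3. A match describes the letters only.

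Postn was low in sham miR-150 fl/fl hearts and high in the other 3 groups (transcript NM_015784). The levels in sham miR-150 fl/fl hearts were -1.88, -0.43 and -0.99 in replicates 1 to 3. In sham miR-150 cKO hearts they were 2.24, 0.41 and 1.94, and in MI miR-150 fl/fl hearts 1.64, 1.39 and 1.91. In MI miR-150 cKO hearts they were 2.32, 2.84 and 1.98. All 9 arrays of those 3 groups lay above all 3 sham miR-150 fl/fl arrays, and within the 9 the lowest was sham miR-150 cKO replicate 2, the male of that group. The group means ran from -1.099 ± 0.73 (SD, n = 3) for sham miR-150 fl/fl to 1.53 ± 0.98 for sham miR-150 cKO, then 1.65 ± 0.26 for MI miR-150 fl/fl hearts and 2.38 ± 0.43 for MI miR-150 cKO hearts. The neighbours MI miR-150 fl/fl and sham miR-150 cKO overlapped, and the MI groups were separated by a gap of 0.07.

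Cthrc1 had the same order at the lower end (NM_026778). In sham miR-150 fl/fl hearts the levels were -5.68, -2.91 and -4.66, and only replicate 2 was well above background. In sham miR-150 cKO hearts they were -1.44, -2.74 and -1.63, and in MI miR-150 fl/fl hearts -1.31, -1.11 and -0.40. MI miR-150 cKO hearts had -2.02, -0.39 and -1.45. Every array outside sham miR-150 fl/fl was well above background, and the 3 groups above it overlapped with their neighbours. In contrast to Postn, the highest mean was that of MI miR-150 fl/fl, at -0.94 ± 0.48, with MI miR-150 cKO at -1.29 ± 0.83, sham miR-150 cKO at -1.94 ± 0.70 and sham miR-150 fl/fl at -4.42 ± 1.40 (SD, n = 3).

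Lrrc15 was well above background on the MI arrays and on none of the sham arrays (NM_028973). On all 6 sham arrays it was not well above background, at -5.21, -5.48 and -5.95 in miR-150 fl/fl hearts and -5.53, -5.53 and -5.38 in miR-150 cKO hearts. On all 6 MI arrays it was well above background, at -3.56, -3.81 and -4.33 in miR-150 fl/fl hearts and -4.63, -3.13 and -3.34 in miR-150 cKO hearts. No MI array overlapped a sham array, and the MI groups overlapped each other, with means of -3.90 ± 0.39 and -3.70 ± 0.81 (SD, n = 3). Because a dim probe gives only a bound, the fold of MI over sham is given against the lowest signal that was well above background on each sham array, or the probe's own where higher. It was at least 1.43-fold in miR-150 fl/fl hearts and at least 1.37-fold in miR-150 cKO hearts.

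Ctgf was highest in MI miR-150 cKO hearts and had similar means in the sham and MI groups of miR-150 fl/fl mice (NM_010217). The levels were 1.14, 0.06 and -0.35 in sham miR-150 fl/fl hearts and 1.43, 0.62 and 1.02 in sham miR-150 cKO hearts. In MI miR-150 fl/fl hearts they were 0.29, -0.05 and 0.44, and in MI miR-150 cKO hearts 1.51, 2.27 and 1.72. The 3 MI miR-150 cKO arrays were the highest of the 12, and the next was sham miR-150 cKO replicate 1. The means ran from 0.23 ± 0.25 in MI miR-150 fl/fl and 0.29 ± 0.77 in sham miR-150 fl/fl, which overlapped, through 1.02 ± 0.41 in sham miR-150 cKO to 1.83 ± 0.39 in MI miR-150 cKO (SD, n = 3). Sham miR-150 fl/fl also overlapped sham miR-150 cKO, through replicate 1, the male of the group.

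The group means of Tgfb3 lay in small steps, with the lowest in sham miR-150 fl/fl and the highest in MI miR-150 cKO hearts (NM_009368). The levels were 2.29, 2.82 and 2.40 in sham miR-150 fl/fl hearts and 3.11, 2.90 and 2.97 in sham miR-150 cKO hearts. In MI miR-150 fl/fl hearts they were 2.97, 2.88 and 3.51, and in MI miR-150 cKO hearts 3.44, 4.11 and 3.71. The means were 2.50 ± 0.28, 2.99 ± 0.11, 3.12 ± 0.34 and 3.75 ± 0.34 in that order (SD, n = 3), and only the sham miR-150 fl/fl group was clear of its neighbour, by 0.08. The MI groups overlapped through MI miR-150 fl/fl replicate 3, the array that shared slide 1 with the MI miR-150 cKO arrays.

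**Figure D1:**
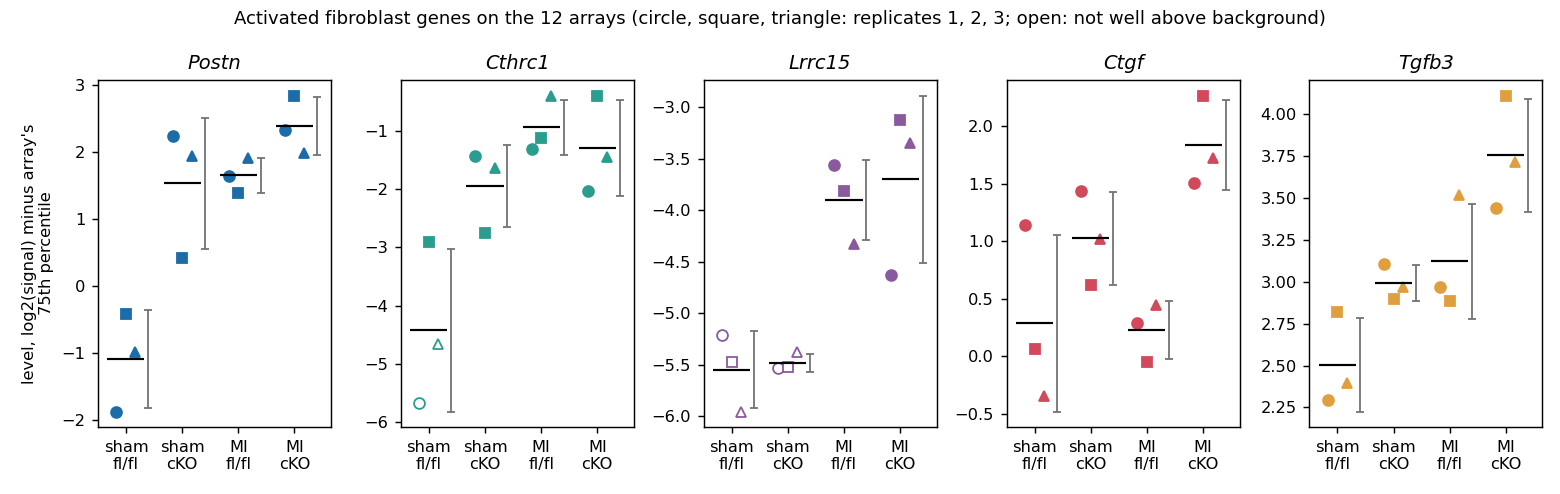
Levels of the 5 genes on each of the 12 arrays, as log2 spot intensity minus the array's 75th percentile, with a separate vertical scale for each gene. Points are replicates 1 to 3, open points are not well above background, lines are group means and grey bars are ± 1 SD. Lrrc15 is open on all 6 sham arrays, Postn and Cthrc1 are lowest in sham miR-150 fl/fl, and Ctgf is highest on the 3 MI miR-150 cKO arrays.

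The first comparison asks what the cardiomyocyte deletion changed without an infarct. Postn was higher in sham miR-150 cKO than in sham miR-150 fl/fl hearts by 2.63 ± 0.48 (SE, log2), or 6.18-fold, and Cthrc1 by 2.48 ± 0.66, and both were chosen on this difference. Cthrc1 was well above background on only 1 of the 3 sham miR-150 fl/fl arrays, so that its difference is uncertain in size: leaving out replicate 1 of the sham miR-150 fl/fl group gave 1.85, leaving out replicate 2 gave 3.23 and normexp background correction 1.06, and it was not past the limits by the methods' unpaired test. Of the 5 genes, these 2 were past the limits, where 0.636% of all probes were past them upward, and Postn, Cthrc1 and Tgfb3 did not overlap between the groups, against 5.04% of probes. No probe of any gene passed in limma at an adjusted p under 0.05 (0%), and 4976 had an unadjusted p under 0.05. Tgfb3 was tested here and was 1.40-fold higher, by 0.49 ± 0.21 (95% interval 0.01 to 0.96), with an adjusted p of 0.54 in limma. It was chosen as higher after MI than on these same sham miR-150 fl/fl arrays, which favours a larger difference here. Ctgf was 0.74 ± 0.36 higher (interval -0.06 to 1.53, adjusted p 0.568 in limma), and the groups overlapped. All 6 arrays lay on slide 2, so that these are also the values within a slide. With single arrays left out the Ctgf difference ranged from 0.42, without sham miR-150 fl/fl replicate 3, to 1.17, without sham miR-150 fl/fl replicate 1. It was past the limits without the latter and, at 0.94, without sham miR-150 cKO replicate 2.

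Macrophage markers moved with the same comparison. All 3 with a name, of 10 listed, were past the limits in sham miR-150 cKO, Lyz2 (lysozyme) by 0.92, Emr1 (F4/80) by 0.75 and Cd14 by 0.67, and all 3 were on the list for this comparison. Their summed level, on the linear scale relative to the 75th percentile, was 15.0 to 28.4 on sham miR-150 fl/fl arrays and 32.0 to 44.5 on sham miR-150 cKO arrays. Their part in the differences of Postn, Cthrc1 and Tgfb3 was not tested.

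The second comparison gives the response to MI in the floxed controls, 4 weeks after surgery. Postn was 2.75 ± 0.48 higher in MI than in sham hearts, or 6.71-fold, Cthrc1 3.48 ± 0.66 and Tgfb3 0.62 ± 0.21. The size for Cthrc1 rests again on sham arrays of which 1 of 3 was well above background, and leaving out replicate 1 of these gave 2.85, leaving out replicate 2 gave 4.23 and normexp 1.66. Lrrc15 was higher by at least 1.43-fold, a bound under the fold limit. These 4 genes were chosen on this comparison, and of the 4 genes measured in both groups 3 were past the limits and did not overlap. Over all probes 0.881% were past the limits upward and 3.82% did not overlap upward, and 0% passed in limma at an adjusted p under 0.05, while the unadjusted p was under 0.05 for 2288. Ctgf was the member tested, and its difference was -0.06 ± 0.36 (interval -0.86 to 0.74, unadjusted p 0.873 in limma). It was chosen as higher in MI miR-150 cKO than on these same MI miR-150 fl/fl arrays, which favours a lower difference here. Within slide 2, with 2 MI arrays against 3, the differences were 2.61 for Postn, 3.21 for Cthrc1, 0.42 for Tgfb3 and -0.17 for Ctgf. The Tgfb3 difference was not past the limits with slide as a block. The macrophage marker Lyz2 was 0.72 higher and past the limits here too, and the summed level of the 3 markers was 28.6 to 35.55 on MI miR-150 fl/fl arrays, above the sham miR-150 fl/fl arrays. Their part in the differences of Postn, Cthrc1, Lrrc15 and Tgfb3 was not tested.

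The third comparison asks what MI added in hearts that already had the cardiomyocyte deletion of miR-150, and none of the 5 genes was chosen on it. Only Tgfb3 and Lrrc15 share no array with their choice. Ctgf was chosen as high on the same MI miR-150 cKO arrays, which favours a larger difference. Postn and Cthrc1 were chosen as high on the same sham miR-150 cKO arrays, which favours smaller ones. Tgfb3 was 0.76 ± 0.21 higher, or 1.70-fold (interval 0.29 to 1.24, adjusted p 0.089 in limma), and Ctgf 0.81 ± 0.36, or 1.75-fold (interval 0.01 to 1.61, adjusted p 0.234 in limma). These 2 of the 4 genes measured in both groups were past the limits and did not overlap, where 4.6% of all probes were past the limits upward, 15.4% did not overlap upward and 2.1% were called by adjusted p, none of the 4 among them. Postn was 0.85 ± 0.48 higher (interval -0.21 to 1.91, adjusted p 0.335 in limma) and Cthrc1 0.65 ± 0.66 (interval -0.81 to 2.11, adjusted p 0.6 in limma), and for both genes the groups overlapped. Among 23 alternatives Tgfb3 was past the limits in 20 and Ctgf in 7. Several of these, such as the filters and sex as a covariate, leave the difference itself unchanged. The groups share no slide, and with slide as a block, or slide and row, neither gene was past the limits. Tgfb3 was then 0.18 and 0.23, and Ctgf 0.49 and 0.69.

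Lrrc15 was higher in MI than sham miR-150 cKO hearts by at least 1.37-fold, with an adjusted p of 0.0382 in limma. This p is not counted as a call, since the sham values behind it are background, the probe entered the fit only through its MI arrays, and the adjusted p was over 0.05 in 15 of 22 alternatives, with a range from 0.0378 to 0.541. The bound went down to 1.04-fold without sham miR-150 cKO replicate 1 and 1.12-fold without MI miR-150 cKO replicate 2, and up to 1.89-fold without MI miR-150 cKO replicate 1. No slide held both groups, and a fit with slide as a block, which rests on MI miR-150 fl/fl arrays on both slides, gave 0.49 for Ctgf, 0.45 for Postn, 0.18 for Tgfb3 and -0.17 for Cthrc1. Without sham miR-150 cKO replicate 2 the Postn difference was 0.29, and without replicate 1 it was 1.21 and past the limits.

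The fourth comparison sets the genotypes side by side after MI. Ctgf, chosen on this comparison, was 1.60 ± 0.36 higher in MI miR-150 cKO than in MI miR-150 fl/fl hearts, or 3.04-fold, and Tgfb3 was 0.63 ± 0.21 higher, or 1.55-fold (interval 0.158 to 1.104, adjusted p 0.181 in limma). These 2 were past the limits, where 3.45% of all probes were past them upward, but Tgfb3 overlapped between the groups. Postn and Ctgf did not overlap, against 15.3% of probes upward, and 0.00184% of probes, a single one, passed by adjusted p in limma, while the unadjusted p was under 0.05 for 9111. Postn was 0.73 ± 0.48 higher (interval -0.33 to 1.79, adjusted p 0.473 in limma), Lrrc15 0.20 ± 0.36 (interval -0.59 to 0.99, adjusted p 0.811 in limma) and Cthrc1 -0.35 ± 0.66 (interval -1.81 to 1.11, adjusted p 0.824 in limma). Tgfb3, Postn, Lrrc15 and Cthrc1 were chosen as high on the same MI miR-150 fl/fl arrays, which favours lower differences here. Within slide 1, the 3 MI miR-150 cKO arrays against the 1 MI miR-150 fl/fl array, the differences were 1.39 for Ctgf, 0.63 for Lrrc15, 0.47 for Postn, 0.24 for Tgfb3 and -0.89 for Cthrc1. All 3 MI miR-150 cKO arrays were above that array for Ctgf and Postn. The Tgfb3 difference was past the limits in 14 of 23 alternatives, and not with the authors' values, quantile normalization or slide as a block.

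**Figure D2:**
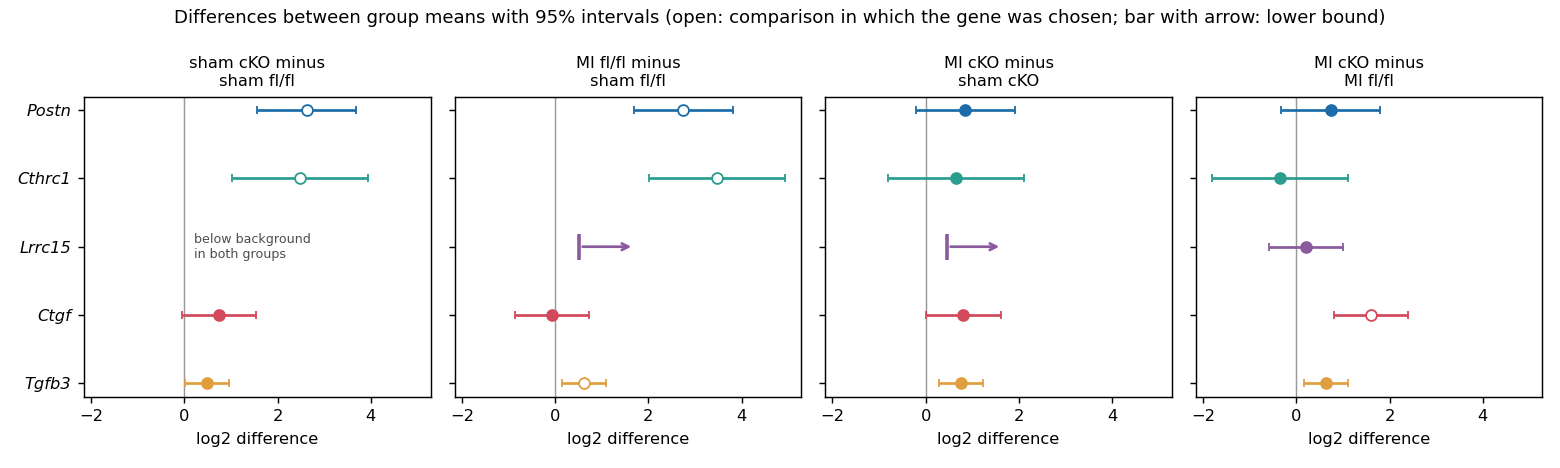
Log2 differences between group means in the 4 comparisons, with 95% intervals from limma, 3 arrays per group. Open points mark the comparison in which a gene was chosen, and bars with arrows are the lower bounds of Lrrc15. The intervals are not adjusted for the number of probes. Those of Tgfb3 lie above 0 in all 4 comparisons, and those of Ctgf in the comparisons of MI miR-150 cKO hearts. Those of Postn and Cthrc1 lie above 0 only where these genes were chosen. In MI against sham miR-150 cKO, which share no slide, the Ctgf interval begins at 0.01. With slide as a block the differences there were 0.49 for Ctgf and 0.18 for Tgfb3.

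The effect of MI was set against genotype by the interaction, the MI difference in miR-150 cKO mice minus that in miR-150 fl/fl mice, given as a value since most of its parts chose the genes. It was -1.89 ± 0.68 (SE) for Postn and -2.83 ± 0.93 for Cthrc1, whose sham miR-150 cKO levels already overlapped those after MI. It was 0.14 ± 0.30 for Tgfb3 and 0.87 ± 0.51 for Ctgf, and it was not measurable for Lrrc15. The comparisons share arrays, and their values are therefore not independent of each other.

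Single arrays differed in several of the genes at once. MI miR-150 cKO replicate 2 had the highest level of its group for 5 of the 5 genes, and replicate 1 the lowest for 4. In sham miR-150 cKO, where 4 genes were measured, replicate 2 was lowest and replicate 1 highest for all 4, and MI miR-150 fl/fl replicate 3 was highest for 4, with Lrrc15 at the group's lowest. The males of the cKO groups were thus at opposite ends of their groups. MI miR-150 fl/fl replicate 3 was the only array of its group on slide 1, so that heart and slide cannot be told apart there. The share of probes well above background was lowest on the sham miR-150 cKO male's array, at 74.1%, and highest on replicate 1 of that group, at 90.3%. The part of this share in these levels was not tested.

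**Figure D3:**
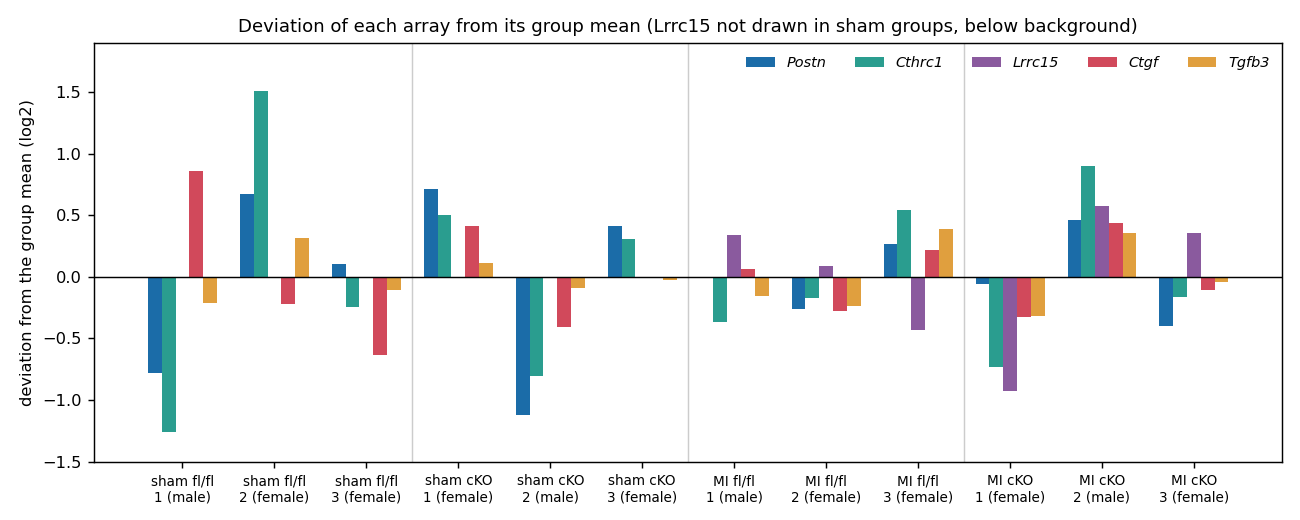
Deviation of each array from the mean of its group of 3, in log2 units, for the 5 genes, with sex from the labels and Lrrc15 not drawn in the sham groups. All 5 bars are above 0 for MI miR-150 cKO replicate 2 and all 5 below 0 for replicate 1, and all 4 are below 0 for sham miR-150 cKO replicate 2.

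Over the 12 arrays, Postn and Cthrc1 were the most alike pair, with Pearson's r of 0.93, and after each group's mean was taken out r was 0.84. Tgfb3 followed them, with r of 0.84 to Postn and 0.80 to Cthrc1, or 0.60 and 0.85 within groups. Ctgf had r of 0.68 to Tgfb3, 0.53 to Postn and 0.30 to Cthrc1, or 0.27, 0.10 and 0.02 within groups. Lrrc15 had r of 0.70 to Tgfb3, 0.64 to Cthrc1, 0.59 to Postn and 0.39 to Ctgf, or 0.21, 0.16, -0.06 and 0.49 within groups, with its values at background on 6 of the 12 arrays. These values describe arrays that share groups and scaling, and the genes were chosen on differences between the same groups.

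The named genes most like each member over the 12 arrays, of 887 other named probes, are given by Pearson's r as a description. For Postn they were Scara3 (0.96), Comp, a cartilage matrix protein (0.94), and Clec11a (0.93). For Cthrc1 they were Pdgfrl (0.95), Serpinf1, which encodes pigment epithelium-derived factor (0.95), and Col3a1, a chain of type III collagen (0.95), and for Tgfb3 Prelp, a matrix proteoglycan (0.97), Gpr176 (0.96) and Comp (0.95). For Lrrc15, at background on the 6 sham arrays, they were Figf, the growth factor VEGF-D (0.88), Zfp503 (0.87) and Hp, haptoglobin (0.86). For Ctgf they were the kinase gene Dyrk2 (0.88), Hoxc12 (0.88) and Jund, an AP-1 subunit (0.88).

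Other genes of the pathways around the 5 could be described only where the key named them, which it did because they passed the limits of the study in some comparison. Where a difference given below is in a comparison that named the gene, it describes that choice and is not a test. In the TGF-β pathway 4 of 29 listed genes had a name. Inhbb, a subunit of activins and inhibins, was 1.11 ± 0.20 higher in MI miR-150 cKO than in MI miR-150 fl/fl hearts, with levels of 0.54 to 1.22 against -0.39 to -0.23. Tgfb1, the ligand related to Tgfb3, was 0.61 ± 0.20 higher in that comparison and differed by -0.02 ± 0.20 between the sham groups. Ltbp3, which binds latent TGF-β in the matrix, was 0.70 ± 0.18 higher in miR-150 fl/fl mice after MI. Of the 4, Tgfb3 included, 0, 2, 2 and 3 were higher past the limits in the 4 comparisons in the order given above, none was lower, and the medians of the differences were 0.37, 0.33, 0.58 and 0.62, where those over all probes were -0.03, -0.01, 0.06 and 0.0046. With slide as a block 0, 1, 0 and 1 were higher past the limits. For this and the following lists, the shares of all probes past the limits upward are those given above with each comparison. Over all probes in the fit, 345, 478, 2495 and 1873 were higher past the limits in the 4 comparisons. The counts of lower probes were 1148, 198, 951 and 712, so that between the sham groups more probes were lower than higher. These shares and counts are no fair contrast, since the named genes were chosen by such values. The probes chosen on the comparison itself were 0, 2, 0 and 2 for TGF-β genes and 1, 1, 0 and 2 for CCN genes. They were 2, 0, 0 and 2 for TEAD and 3, 4, 0 and 3 for collagens. For collagen processing they were 4, 7, 0 and 2, and for other activated fibroblast genes 4, 13, 0 and 4.

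Of the CCN family, 3 of 6 genes had a name. Cyr61, like Ctgf an early matricellular target of YAP and TEAD, had levels of 4.09 to 4.71 in MI miR-150 cKO hearts and 3.04 to 3.87 in MI miR-150 fl/fl hearts, a difference of 0.92 ± 0.35. In miR-150 fl/fl mice after MI it was higher by 0.07 ± 0.35. Wisp2 differed from both, with 0.77 ± 0.16 in that comparison and 0.63 ± 0.16 between the sham groups. Of the 3, with Ctgf included, 1, 1, 1 and 2 were higher past the limits in the 4 comparisons and 0 lower, with medians of 0.63, 0.07, 0.52 and 0.92, and with slide as a block 1, 1, 0 and 1 were higher. Of the TEAD list, 3 of 9 genes had a name, of which 1, 0, 1 and 2 were higher past the limits and 1, 0, 0 and 0 lower, with medians of 0.20, -0.11, 0.30 and 0.73, and with slide as a block 1, 0, 1 and 1 were higher. Ankrd1, a stress protein of cardiomyocytes and a target of YAP, was 0.97 ± 0.26 higher in sham miR-150 cKO than sham miR-150 fl/fl hearts and 0.73 ± 0.26 higher in MI miR-150 cKO than MI miR-150 fl/fl hearts. The transcription factor Tead2 was 0.85 ± 0.17 higher in the latter comparison, whereas Tead1 was lower by 0.88 ± 0.25 in the former (difference -0.88).

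Collagens are the main product of activated fibroblasts, and 6 of 18 listed genes had a name. Of these 4, 5, 3 and 4 were higher past the limits in the 4 comparisons, 0 were lower in any, and the medians were 0.92, 1.05, 0.85 and 0.82. With slide as a block 4, 4, 1 and 1 were higher. Col3a1 was 2.01 ± 0.41 higher in miR-150 fl/fl mice after MI and 1.46 ± 0.41 higher in sham miR-150 cKO, as with Postn and Cthrc1, and differed by -0.03 ± 0.41 between the MI groups. Col1a1 was 1.27 ± 0.30 and Col1a2 0.80 ± 0.27 higher in MI than sham miR-150 cKO hearts, and Col6a1 was 0.93 ± 0.15 higher there, with an adjusted p of 0.0245 in limma. These groups share no slide. The Col6a1 call was lost with replicate number as a block, in the fit of the 2 groups and by the methods' test, where 0 probes were called. Genes that process collagen had a name for 10 of 24, with 5, 7, 2 and 1 higher past the limits, or 5, 6, 2 and 1 with slide as a block and then 1 lower in each, and 1 lower as reported, P4ha3 between the sham groups, named after its value was seen. Adamts2, which trims procollagen, was 1.12 ± 0.22 and Loxl1, a cross-linking enzyme, 1.11 ± 0.26 higher in miR-150 fl/fl mice after MI, and the matrix protease Mmp3 was 0.98 ± 0.28 higher in sham miR-150 cKO.

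Of 30 other genes listed for activated fibroblasts, 13 had a name, on 17 probes. Of the probes 6, 11, 7 and 3 were higher past the limits in the 4 comparisons and 0, 0, 1 and 2 lower, with medians of 0.60, 0.80, 0.45 and 0.24. With slide as a block 6, 9, 0 and 0 were higher, so that none was higher past the limits in the comparisons of MI miR-150 cKO hearts. Pamr1 was 1.92 ± 0.37 higher in miR-150 fl/fl mice after MI and 1.25 ± 0.37 higher in sham miR-150 cKO, in the manner of Postn. Fn1, fibronectin, was higher after MI by 1.65 ± 0.40 in miR-150 fl/fl mice and by 1.58 ± 0.40 in miR-150 cKO mice. Prg4, lubricin, was 1.92 ± 0.54 higher in MI miR-150 cKO than MI miR-150 fl/fl hearts. The lower ones, named after their values were seen, were the transcription factors Runx2, at -1.15 ± 0.17 in MI against sham miR-150 cKO with an adjusted p of 0.0223 in limma and -0.72 ± 0.17 between the MI groups, and Snai2, at -0.76 ± 0.16 between the MI groups. The Runx2 call in MI against sham miR-150 cKO was lost in the same settings as that of Col6a1. Of 11 genes of resting fibroblasts, Dpt and Fbln1 had names, and Dpt was 0.97 ± 0.23 and Fbln1 0.60 ± 0.20 higher in miR-150 fl/fl mice after MI, where both were chosen. Higher past the limits in the 4 comparisons were 1, 2, 1 and 0 of these, with 0 lower, and with slide as a block 1, 2, 0 and 0. Dpt was 0.63 ± 0.23 higher between the sham groups. It differed by -0.12 ± 0.23 in MI against sham miR-150 cKO and by -0.46 ± 0.23 between the MI groups, where it was also chosen.

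Markers of other cells were as thinly named, at 2 of 10 for cardiomyocytes, 2 of 8 for lymphocytes, 4 of 8 for adipocytes and 0 of 8 each for endothelial cells and for smooth muscle cells and pericytes. The cardiomyocyte markers were well above background on all 12 arrays. Their summed level was 112 to 122 on MI miR-150 cKO arrays and 55.3 to 92.2 on MI miR-150 fl/fl arrays, with Atp2a2, the calcium pump of the sarcoplasmic reticulum, higher by 0.87 and the 2 probes of troponin T, Tnnt2, each lower by 0.55 (differences of -0.55). Atp2a2 made up most of this sum, with a mean log2 level of 6.77 on MI miR-150 cKO arrays against 2.04 and 2.28 for Tnnt2. The adipocyte marker Adipoq was 2.41 ± 0.74 higher in miR-150 fl/fl mice after MI and differed by -2.91 ± 0.74 in MI miR-150 cKO hearts against the MI miR-150 fl/fl hearts, opposite to Ctgf and Tgfb3. Cfd, adipsin, differed by -0.88 ± 0.22 between the MI groups, the lipid droplet gene Plin4 by -0.68 ± 0.12 between the sham groups, and Scd1, a desaturase, was 0.85 ± 0.25 higher in miR-150 fl/fl mice after MI and 0.76 ± 0.25 higher in sham miR-150 cKO. With slide as a block none of the 4 was past the limits in the comparisons of MI miR-150 cKO hearts. The summed level of the lymphocyte markers Cd4 and Ms4a1 was 16.5 to 18.5 on MI miR-150 cKO arrays and 6.22 to 13.7 on MI miR-150 fl/fl arrays, Cd4 being 1.03 higher and Ms4a1 differing by -0.76. Cd4 made up nearly all of this sum, with a mean log2 level of 4.13 on MI miR-150 cKO arrays against -4.73 for Ms4a1. Ms4a1 was well above background on only 6 of the 12 arrays. With slide as a block no cardiomyocyte or lymphocyte probe was past the limits in the comparisons of MI miR-150 cKO hearts. The part of these cells in the differences of the 5 genes was not tested.

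**Figure D4:**
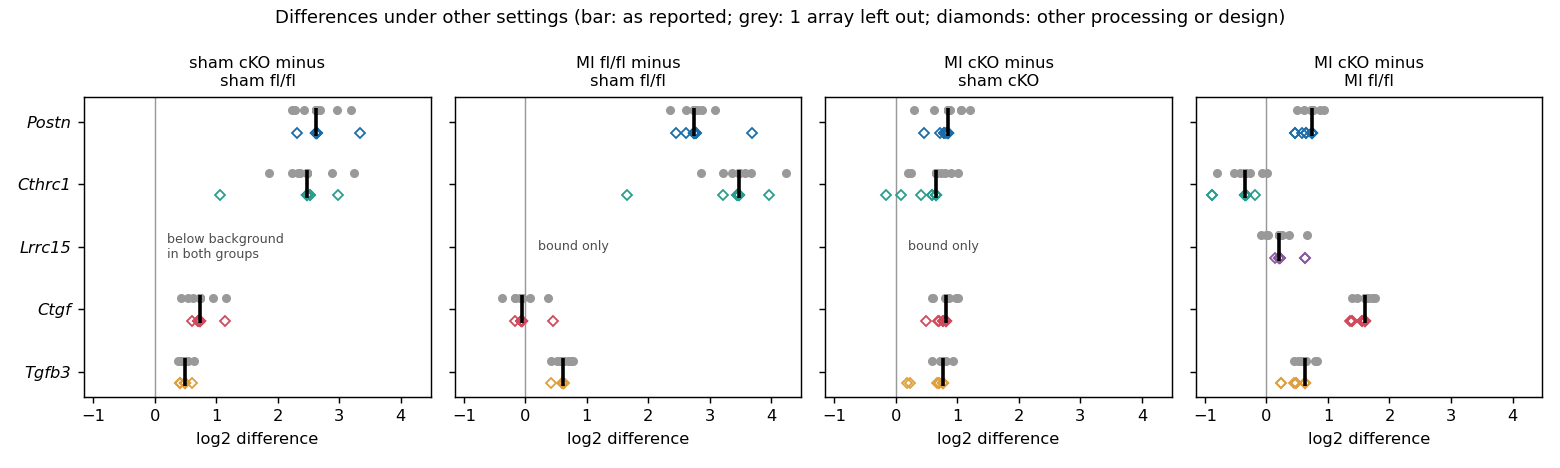
Log2 differences of the 5 genes in the 4 comparisons under other settings: the black bar is the value reported, grey points leave out 1 of the 12 arrays each, and diamonds are other normalizations, filters and designs, with Lrrc15 left out where it has a bound. Postn and Cthrc1 stay above 0 in both comparisons in which they were chosen, and Ctgf in MI miR-150 cKO minus MI miR-150 fl/fl ranges from 1.37 to 1.77. The choice of the genes favours this, and other settings on the same arrays do not remove it. In pairs not used for the choice, the direction turns for Ctgf in MI against sham miR-150 fl/fl, from -0.38 to 0.45. It also turns for Cthrc1 in MI against sham miR-150 cKO, from -0.17 to 1.02, and for Cthrc1 and Lrrc15 between the MI groups.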

How the data were processed

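Spot intensity on a linear scale, background-subtracted by Agilent Feature Extraction 11.0.1.1 and not normalized between arrays, and a table of log2 values were deposited by the authors. The normalization of that table is not given in the sources used here, and the headers name build mm9. The genes described and the gene lists were chosen with earlier results of these data known.

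Non-control spots were averaged by probe, flagged spots (0.0593%) were missing, and 0 were saturated. Intensity was taken to log2 and scaled to the 75th percentile. limma 3.58.1 in R 4.3.3 fitted 4 group means, with 8 residual degrees of freedom, or 10.4 with its prior. The number of arrays limits the precision. Names came from 963 list entries, each matching 1 probe within a relative tolerance of 2e-05. The text names the 5 genes, the 3 named genes most correlated with each, all named genes of the TGF-β, CCN and TEAD lists, and the 3 with the largest difference in each other list. The fit was tested on simulated data. Alternatives were quantile normalization, normexp correction (offset 50, median spot signal), the authors' values, no filter, a filter on 12 arrays, 2 groups alone, the methods' unpaired 2-tailed test, sex, replicate number, slide, and slide with row as blocks, and leaving out each array.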

Additional observations from a re-analysis of the deposited data

How the results depend on the processing

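By adjusted p, of the 12 tested differences 11 were not called in the reported fit, and none became called in any of the alternatives run, which were 11 settings and leaving out each of the 12 arrays. The fitted Lrrc15 difference in MI against sham miR-150 cKO, 1.78, kept its direction but lost its adjusted call with 1.49 under quantile normalization, 0.40 under normexp, 1.49 with the authors' values, 1.78 in the fit of the 2 groups and by the methods' test, 2.42 with slide as a block and 2.40 with slide and row, and it was 1.49 to 2.24 with single arrays left out. The direction turned for small differences: Ctgf in MI against sham miR-150 fl/fl was 0.45 with slide and row as a block and -0.38 to 0.37 with single arrays left out, Cthrc1 in MI against sham miR-150 cKO was -0.17 with slide as a block, and between the MI groups Cthrc1 was -0.798 to 0.0176 and Lrrc15 -0.0844 to 0.667 with single arrays left out. The causes were not tested. In the comparisons on which they were chosen, normexp gave smaller differences for dim probes, 1.06 for Cthrc1 between the sham groups and, in MI against sham miR-150 fl/fl, 1.66 for Cthrc1 and 0.24 for Lrrc15. A filter on all 12 arrays left no value for Cthrc1 or Lrrc15.

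The values did not settle whether replicate numbers pair the arrays. Of 18 same-numbered pairs of arrays from different groups, 6 had deviations that correlated above 0.1, with r from -0.27 to 0.27 and a median of 0.04. Of 36 differently numbered pairs 7 did, with r from -0.41 to 0.34 and a median of 5e-04. With replicate number as a block the Lrrc15 difference was 1.78 with an adjusted p of 0.0711 in limma, and the probes called in MI against sham miR-150 cKO went from 1139 to 0. No other adjusted call among the 12 changed with the block, and Ctgf in MI against sham miR-150 cKO was no longer past the limits.

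Over all probes, counts at an adjusted p under 0.05 in limma moved by more than 1.5 times. In MI against sham miR-150 cKO they were 1139 as reported, 1938 under quantile normalization, 2605 under normexp, 1915 with the authors' values, 2005 with the filter on all arrays, 0 in the fit of the 2 groups and by the methods' test, and 22 and 5 with slide and with slide and row. They were 0 without MI miR-150 cKO replicate 2 or 3 or sham miR-150 cKO replicate 2 or 3, 4037 without sham miR-150 cKO replicate 1, 460 without MI miR-150 cKO replicate 1, 434 without MI miR-150 fl/fl replicate 1 and 299 without sham miR-150 fl/fl replicate 3, and 729 to 1519 without each of the other 4. Between the MI groups they were 1 as reported and 503 under normexp, 295 with the filter on all arrays, 304 with sex, 80 and 92 with the slide blocks, and 0 to 99 with single arrays left out. Between the sham groups they were 0 as reported and 302 without sham miR-150 cKO replicate 1. Dim signal limits Lrrc15 in sham hearts and Cthrc1 in sham miR-150 fl/fl hearts.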
